A study of Mus musculus with 9 samples.

Results

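The cells described here are mNS-5 neural stem cells (NSCs) that carried a non-silencing (NS) control shRNA, and the data are their baseline transcriptome on 3 arrays, labelled sets 1 to 3 and called replicates 1 to 3. They are 3 of the 9 samples of the series; the other 6 are arrays of the same cells with a Med12-specific shRNA, 2 in each set. mNS-5 is a clonal, adherent line derived from mouse embryonic stem cells, so that all arrays come from 1 clone. Both groups were grown on 0.1% gelatin in RHB-A medium with FGF-2 and EGF at 10 ng/ml each, infected with lentivirus, selected with puromycin at 600 ng/ml from 24 hours after infection, and harvested 5.5 days after infection. The study's methods describe 3 independent biological replicates of each condition. No knockdown contrast of expression levels was made. The knockdown arrays enter the background limit, which was taken from all 9 arrays. Otherwise they enter only where arrays labelled with the same set can be looked up in both groups.

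Neural stem cells are dividing progenitors of the central nervous system that can renew themselves or give rise to neurons, astrocytes and oligodendrocytes. In culture, EGF and FGF-2 keep them dividing, and withdrawal of these factors lets them differentiate. They share many genes with radial glia, the progenitors that line the embryonic neural tube, among them intermediate filament genes, glutamate transporters and transcription factors of the SOX, HES and NFI families. Lines made from embryonic stem cells are therefore usually checked both for such progenitor genes and for the loss of pluripotency genes.

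Expression was measured on Illumina MouseWG-6 BeadChips as intensities in arbitrary units on a linear scale, after background subtraction and quantile normalization by the authors. The brightest probe stood for each gene symbol, and a symbol counted as detected when the mean of its 3 NS control arrays was above 16.9, a limit taken from the values below 0. Of 19057 symbols, 9842 were detected (51.6%), and 8801 (46.2%) were above the limit on each of the 3 arrays. Another 7266 symbols were above it on none. Means reached 100 or more for 6854 symbols, 1000 or more for 2730 and 10000 or more for 229. The share detected rose with the number of probes a symbol has, from 38.5% of 9885 symbols with 1 probe to 58.0% of 5053 with 2 and 75.5% of 4119 with 3 or more. Just inside the limit were Khdc3, 5730522E02Rik and Olfm4 with means of 16.97, and just outside it Sema6c, Rims2 and Zfp607b with means of 16.93. Probes differ in how well they hybridise, so a rank below is a rank of probe brightness (1 is the brightest of the 19057) and does not order genes by the amount of their RNA. For the same reason a gene not above background is not shown to be unexpressed. Values are given for replicates 1, 2 and 3 in that order.

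The label was first checked against its markers, and 4 of the 5 were above background on every array. Nes, which encodes the intermediate filament nestin, read 2407, 2326 and 2551 (mean 2428 ± 114 SD, n = 3), at rank 1327. Sox2, a transcription factor needed for progenitor identity, read 1310, 1180.2 and 1204 (mean 1231 ± 69.1 SD, n = 3), at rank 2364. Both varied little between replicates. Fabp7, the brain lipid-binding protein of radial glia, read 1201, 597 and 931 (mean 909.6 ± 302 SD, n = 3), at rank 2894, with its lowest value on replicate 2. Olig2, a transcription factor of ventral and oligodendrocyte progenitors, read 442, 522 and 383 (mean 449 ± 69.6 SD, n = 3), at rank 4249. Gfap, the intermediate filament of astrocytes and of adult neural stem cells, was not detected: its brighter probe read 5.7, 17.2 and -0.9, at rank 12001, and neither of its 2 probes had a mean above the limit. The NSC label is thus borne out by 4 of its 5 markers, with Gfap not above background.

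**Figure D1:**
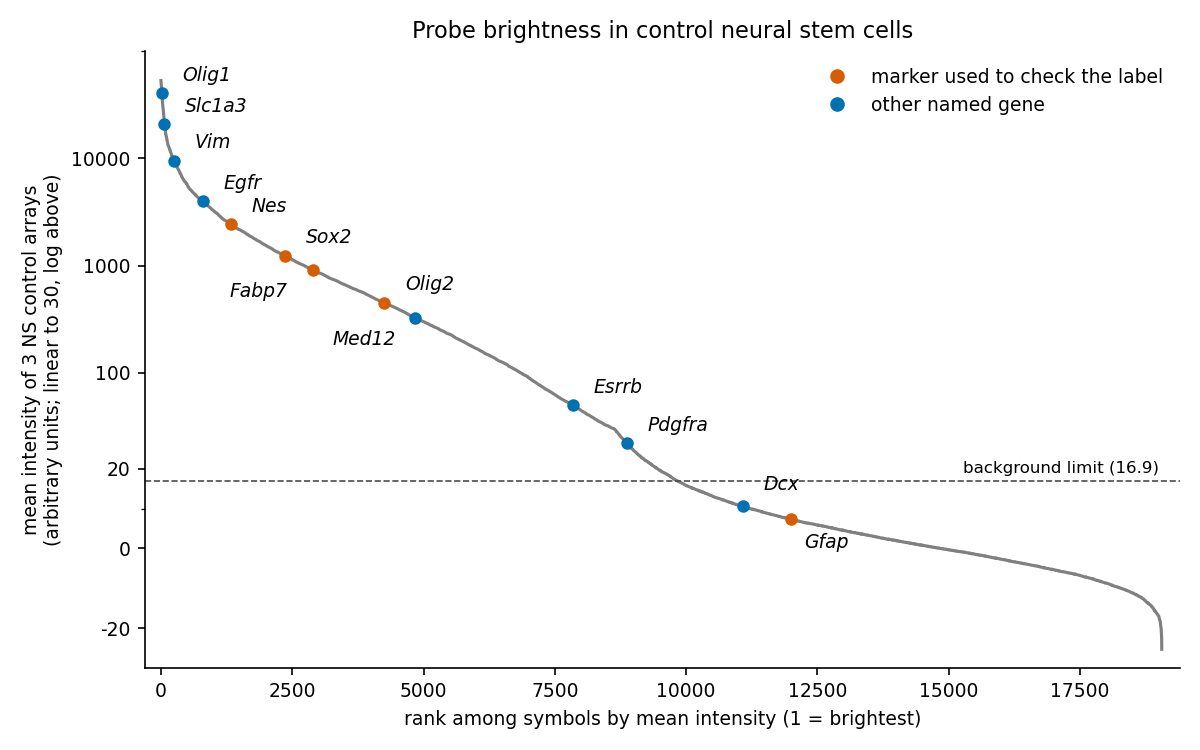
Mean intensity over the 3 NS control arrays (vertical axis, arbitrary units, linear to 30 and logarithmic above) against the rank of the 19057 symbols by that mean (horizontal axis). The line is every symbol, the orange points are the 5 markers, the blue points are other named genes, and the dashed line is the limit of 16.9; Nes, Sox2, Fabp7 and Olig2 lie well above it and Gfap below it.

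The promoters of the 5 markers are shown because their sequences differ in CpG content and in the elements they hold. Each is the 120 bases before the transcription start in RefSeq's annotation of GRCm38.p6, 5′ to 3′ on the gene's strand, with matches to TATAAA, to CCAAT or to GGGCGG on either strand in capitals (ATTGG and CCGCCC are the reverse complements of the latter pair). They lie at chr3:87970973-87971092 on the plus strand for Nes, chr3:34649875-34649994 on the plus strand for Sox2, chr10:57784803-57784922 on the plus strand for Fabp7, chr16:91225430-91225549 on the plus strand for Olig2 and chr11:102897201-102897320 on the minus strand for Gfap.
Nes: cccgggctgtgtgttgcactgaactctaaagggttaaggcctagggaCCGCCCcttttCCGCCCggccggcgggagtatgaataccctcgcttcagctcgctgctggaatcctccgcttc
Sox2: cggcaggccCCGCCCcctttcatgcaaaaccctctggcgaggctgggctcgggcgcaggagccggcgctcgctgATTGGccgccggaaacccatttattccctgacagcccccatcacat
Fabp7: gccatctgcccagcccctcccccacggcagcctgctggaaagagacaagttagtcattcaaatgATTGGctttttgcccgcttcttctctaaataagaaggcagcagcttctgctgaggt
Olig2: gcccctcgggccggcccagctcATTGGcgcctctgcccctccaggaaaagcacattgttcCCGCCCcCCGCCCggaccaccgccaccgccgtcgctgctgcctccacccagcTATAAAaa
Gfap: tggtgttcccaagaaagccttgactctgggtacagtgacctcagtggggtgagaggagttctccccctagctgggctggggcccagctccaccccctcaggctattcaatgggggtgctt
In these stretches Nes held GGGCGG matches only, Sox2 a CCAAT and a GGGCGG match, Fabp7 a CCAAT match, and Olig2 matches to all 3 elements, while Gfap held none of them. Over the full window of 300 bases (250 before to 50 after the start), the observed over expected CpG ratio was 0.70 for Nes, 0.82 for Sox2 and 0.82 for Olig2, against 0.28 for Fabp7 and 0.13 for Gfap. A match is a description of the letters and does not show that a factor binds there.

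Of 36 NSC and radial glia genes with a named probe, 29 were detected, 80.6% against 51.6% of all symbols, and 14 of them had means of 1000 or more. Slc1a3, the glutamate transporter GLAST of radial glia and astrocytes, was at rank 64 and read 21663, 21235 and 19036. Vim, the intermediate filament vimentin, read 9171, 9755 and 9468, and Sox9, a factor that supports progenitors and glial fate, read 7055, 8222 and 8666. These 3 genes were high on every array, with no array apart from the rest. Zeb1, a zinc finger repressor, read 5927, 6162 and 5492, and Sox11, a SOX factor of neural progenitors and young neurons, read 4089, 4366 and 4290. Sox21, which acts against SOX2 family activators, read 5118, 3301 and 2869, with replicate 1 the highest. The Notch target gene Hes5 differed more between arrays than the others of the list, at 309, 62.8 and 108. Pax6, a dorsal forebrain progenitor factor, was close to the limit at 32.4, 18.9 and 15.5, and so was Nr2e1, the orphan receptor TLX, at 17.3, 22.6 and 17. The 7 members not detected were Fut4, Prom1, Ednrb, Adgrg1, Id4, Msi1 and Sox1. Sox1, a factor of the early neural plate, read -24, -4 and -17.6, and Prom1, the surface protein CD133, read 9.4, 8.7 and 23.

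Of 12 ventral and oligodendrocyte precursor factors 6 were detected, a share near the 51.6% of all symbols. Olig1, the partner gene of Olig2, was among the 30 brightest symbols, at rank 17, and read 43690.1, 39271 and 37979. Sox5 read 1313, 1441 and 1634 and Sox8 read 1022, 919 and 770.3, both SOX factors that act in glial development. These were far above background on all arrays. The receptor Pdgfra, which defines oligodendrocyte precursors, was near the limit at 39.2, 21.5 and 18.6, and Cspg4, the proteoglycan NG2 of the same cells, was above it on 2 arrays at 12, 33.7 and 27.7. Sox10, the factor that drives the oligodendrocyte programme, was not detected at 8.4, -7.4 and -6.1, nor were Nkx2-2, Nkx6-1, Nkx6-2, Sox6 and Gpr17. Olig1 and Olig2 were therefore present on all arrays without Sox10 and with Pdgfra close to the limit.

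Markers of myelin and of neurons were mostly at background, while most astrocyte genes were detected. Of 11 myelin genes 2 were detected: Cnp, an enzyme also made before myelination, at 414, 250.2 and 292, and Opalin at 35, 5.8 and 23.7, above the limit on 2 arrays. Mbp, Mog and Mag, which encode proteins of the myelin sheath, were each below the limit on all arrays, with values from -7.1 to 15.1. Of 32 neuronal genes 9 were detected (28.1%, against 51.6% of all symbols). Map2, a microtubule protein of dendrites, was the bright exception at 6172, 5927 and 5217, from 1 of its 9 probes, of which 4 had means above the limit. The other neuronal genes detected were far dimmer, led by Syp, a synaptic vesicle protein, at 106, 168 and 256 and Gad1, a GABA-synthesising enzyme, at 100.5, 127 and 135. Dcx, a microtubule protein of migrating neurons, read 7.6, 12.3 and 11.9, and neither it nor Tubb3 or Rbfox3, markers of young and mature neurons, was detected. The astrocyte list was different, with 10 of 15 detected (66.7%, above the 51.6% of all symbols). It shares Slc1a3 and Slc1a2 with the NSC list, and its brightest members besides Slc1a3 were the glycolytic enzyme gene Aldoc at 14123, 10749.7 and 11183 and Gja1, the gap junction protein connexin 43, at 5831, 6758 and 6258. Sparcl1, Fgfr3, Slc1a2, Glul and S100b were dimmer but above the limit on each array, with S100b at 163, 90.2 and 220. Aqp4, the water channel of astrocyte endfeet, was above the limit on replicate 1 alone at 66.3, 13.5 and 14.8, and Apoe was not detected at 13.3, -5.4 and 5.1. In bulk RNA of this kind, fewer cells of a type and less RNA per cell cannot be told apart.

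Genes of other lineages that a culture from embryonic stem cells could hold were detected less often than the 51.6% of all symbols. Not all of those detected were dim. Of 20 pluripotency genes 6 were detected (30%), all with means under 100. Esrrb, an orphan receptor of the naive pluripotent state, read 45, 54 and 51.2, and Klf4, which many other cells also use, read 74.2, 39 and 96.4. Pou5f1, the gene of OCT4, was not detected at 10.4, 13.1 and 1.7, nor was Zfp42 (REX1) at 5.7, -9 and -5.2, and Nanog was above the limit on 2 arrays at 24.1, 26.9 and 4. Of 18 mesoderm and endoderm genes 5 were detected (27.8%). Gsc, a homeobox gene of the gastrula organiser, was the brightest of them at 356, 362 and 445, followed by the forkhead gene Foxa1 at 162, 154 and 212 and Gata6 at 87.1, 113 and 109. These 3 genes were above the limit on every array. Hnf4a was above it on 2 arrays at 35, 17.9 and 8.7. Sox17, Gata4 and Afp of the same list were not detected, though Gata4 was above the limit on 2 arrays at 18.3, -12.7 and 17.6. Of 12 neural crest and Schwann cell genes 5 were detected (41.7%), with Pmp22, a membrane protein of many cell types, at 744, 1260.4 and 1382 and Tfap2a at 252, 245 and 208. Sox10, Pax3 and Snai2 were not detected. Of 17 microglial, blood and endothelial genes 4 were detected (23.5%), all with means under 30, and Ptprc, Cx3cr1, Pecam1 and Cdh5 were not.

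**Figure D2:**
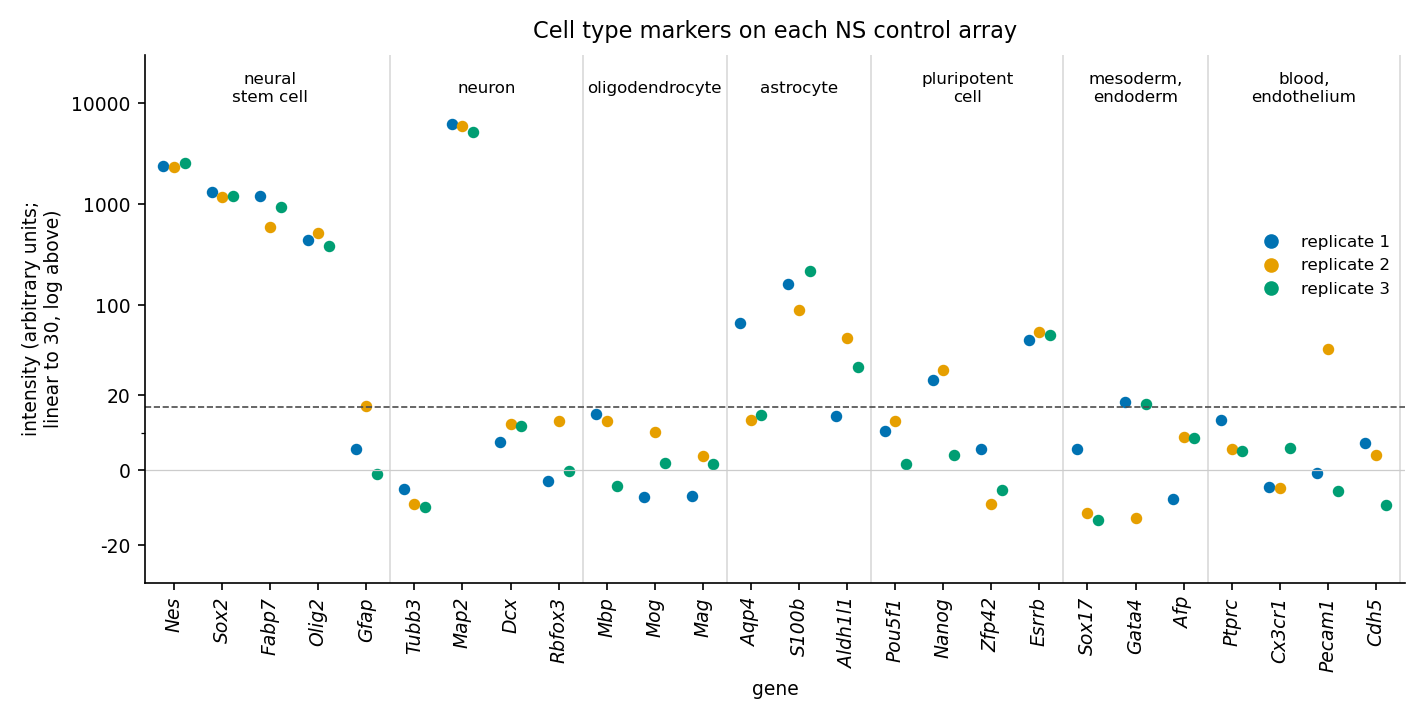
Intensity of chosen markers of 7 cell types on each of the 3 NS control arrays, with 1 point per array and gene (vertical axis, arbitrary units, linear to 30 and logarithmic above). The dashed line is the limit of 16.9. Far above it on all arrays lie 4 of the 5 neural stem cell markers and Map2. S100b and Esrrb also lie above it on each array, and most markers of other cells scatter around 0. Astrocytes are shown through Aqp4, S100b and Aldh1l1 alone. The brighter genes Slc1a3, Aldoc and Gja1 of the astrocyte list are not drawn, and 10 of its 15 genes were detected.

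Genes that mark position along the neural tube came from more than 1 region. Of 25 forebrain and midbrain homeobox factors (with the DMRT factor Dmrta2) 10 were detected (40%) and of 38 HOX genes 8 (21.1%). Both shares were under the 51.6% of all symbols. Dmrta2, a dorsal telencephalic factor, read 1297, 1276 and 1522, Gbx2, which acts behind the midbrain-hindbrain boundary, read 1684, 1062 and 994, and Otx1, which acts in front of it, read 672, 531 and 508. The midbrain and hindbrain boundary genes En1 and En2 read 316, 291 and 284 and 151, 147 and 139.9. The Iroquois genes Irx5 and Irx3 read 407, 452 and 377 and 445, 373 and 360. Otx2, Emx1, Emx2, Nkx2-1, Six3 and Pax2 were not detected. Among HOX genes, Hoxa5 stood apart at 3268, 3831 and 3821, at rank 884. Hoxa2 read 508, 603 and 756, Hoxa4 read 101, 93.9 and 109 and Hoxa13 read 54.9, 49.5 and 60.4. These 4 genes of the HOXA cluster were above the limit on each array. The other 4 detected, Hoxc10, Hoxa3, Hoxa7 and Hoxc11, were above it on 1 or 2 arrays. No gene of the HOXB or HOXD clusters in the list was detected.

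The receptors for the growth factors in the medium were present. Of 9 EGF and FGF receptor genes 6 were detected (66.7%). Egfr, the EGF receptor, read 5448, 3353 and 3136, at rank 797, with replicate 1 the highest. Among FGF receptors, Fgfr2 read 1298, 801 and 802, Fgfr3 read 366, 192 and 129.7 and Fgfr1 read 53.4, 112 and 56.8. Fgfr2 and Fgfr3 were likewise highest on replicate 1. Fgfrl1, an FGF receptor without a kinase domain, read 1232, 1213 and 1124, and Erbb2, a partner of EGFR with no ligand of its own, read 85.1, 107 and 94.4. Erbb3, Erbb4 and Fgfr4 were not detected. Of 30 ligand genes of both families 8 were detected (26.7%, against 51.6% of all symbols), led by Fgf1 at 654, 782 and 609, Fgf22 at 316, 280 and 224 and Hbegf, which encodes a ligand of EGFR, at 225, 149.7 and 165. The genes of the added factors themselves, Fgf2 and Egf, were not detected, and Egf read 26.2, 5.6 and 4.7. Of 23 other receptor tyrosine kinase genes 15 were detected (65.2%). Ryk, a receptor for WNT proteins, read 5528, 6453 and 5371, Ddr1, a collagen receptor, read 1102, 744 and 773, and Ntrk2, the receptor for BDNF, read 759, 637 and 726. Kit, the receptor for stem cell factor, was lowest on replicate 1 at 290.5, 694 and 498.

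Of 24 genes of Notch signalling, by which neighbouring cells keep each other undifferentiated, 16 were detected (66.7%, against 51.6% of all symbols). The receptor Notch1 read 899, 833 and 1151 and Notch3 read 145, 179 and 157. The ligand Dll1 read 278, 175 and 223, and Jag2, Dll3 and Dll4 were not detected. Target genes were among the brighter members, with Hey1 at 2334, 1738 and 2149 and Hes1 at 1113, 769 and 1028. Hes6, an inhibitor of HES1, read 3288, 2897 and 2862, and the coactivator gene Maml2 read 3271, 3252 and 3039. The probe for Rbpj, the DNA-binding partner of Notch that its target genes need, was at background on all arrays at -2.2, 3.7 and 6.5.

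Of the WNT family, the receptors were mostly detected and the ligands mostly not. Of 19 Wnt ligand genes 6 were detected (31.6%), with Wnt7a at 1439.6, 1133 and 1139, Wnt7b at 930, 881 and 704 and Wnt5a at 805, 442 and 485. Of 15 frizzled and LRP family receptor genes 13 were detected (86.7%), and besides Ryk the brightest was Fzd10 at 596, 599.6 and 564. Fzd2, Fzd5, Fzd7 and Fzd3 had similar values, from 231 to 334 over all arrays. In the hedgehog pathway 9 of 15 genes were detected (60%, near the 51.6% of all symbols). The receptor Ptch1 read 518, 362 and 382, the signal transducer Smo read 428, 548 and 408, and the transcription factors Gli3 and Gli2 read 678, 539.7 and 620.4 and 268, 266 and 293. The ligand genes Shh, Ihh and Dhh were not detected, and neither was Gli1, a target gene of the pathway, at -22.4, -14.7 and 4.4. Of 14 TGF-beta and BMP receptor genes 10 were detected (71.4%), with Tgfbr2 at 3149, 3409 and 2879, Bmpr2 at 3047, 2691 and 2494, Tgfbr1 at 1822, 1663 and 1518 and Bmpr1a at 1755, 1457 and 1361. All of these were above 1000 on each array. Of 20 cytokine receptor and STAT pathway genes 14 were detected (70%), with Stat3, which mediates astrocyte induction by LIF family cytokines, at 1812, 1652 and 1152. Il6st, the shared receptor chain gp130 of these cytokines, read 109, 88.5 and 102.

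Of 53 neurotransmitter receptor genes 12 were detected (22.6%, against 51.6% of all symbols). The brightest were the muscarinic receptor gene Chrm3 at 461, 836 and 557 and the nicotinic receptor gene Chrna4 at 211, 179 and 196. The glutamate receptor gene Gria2 read 52, 57.1 and 40.4 and the serotonin-gated channel gene Htr3a read 36.3, 49.1 and 61.1. The other members detected had means under 70, and the 41 not detected include Grin2b and Gabra4, for NMDA and GABA receptor subunits.

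**Figure D3:**
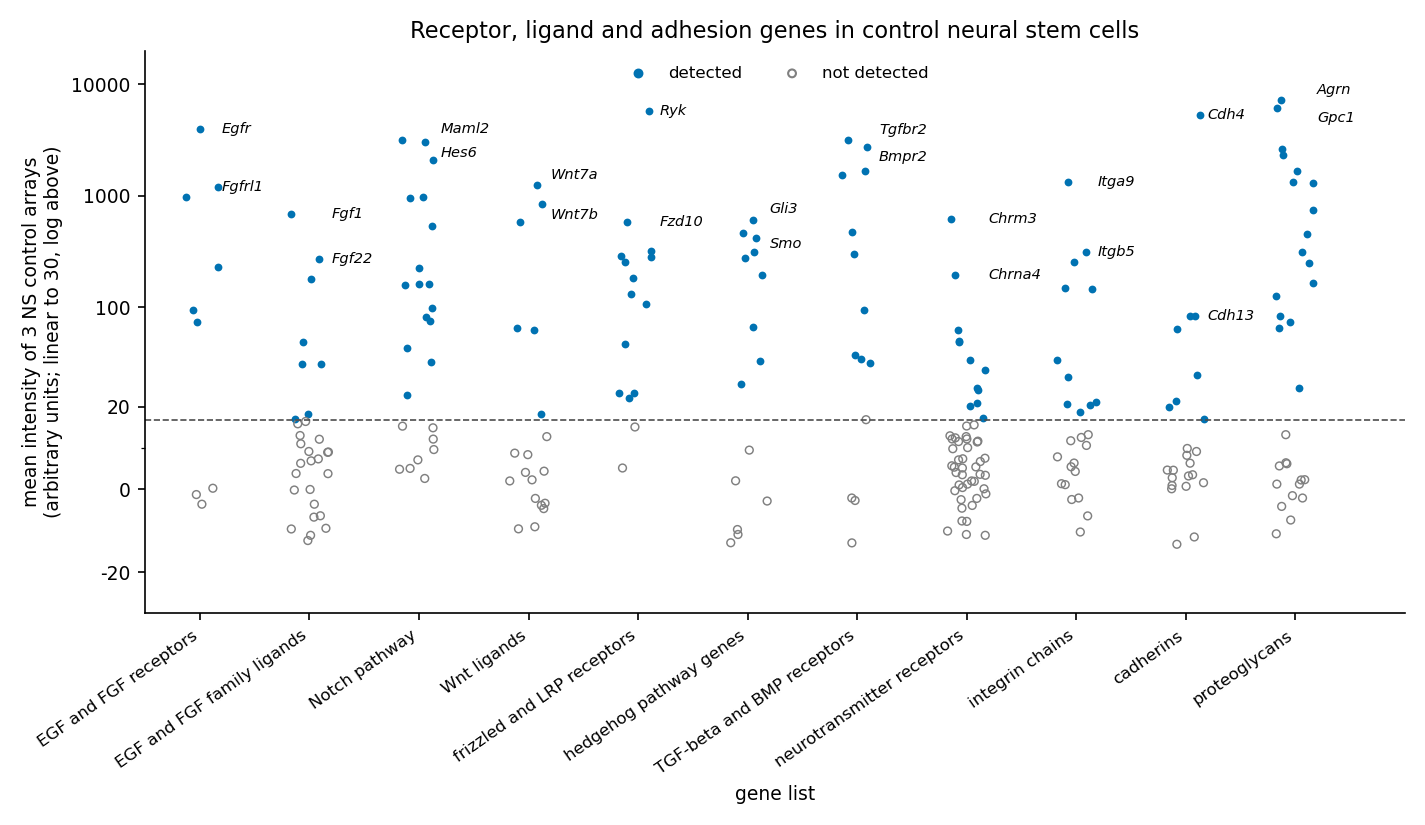
Mean intensity over the 3 NS control arrays (vertical axis, arbitrary units, linear to 30 and logarithmic above) of each member of 11 receptor, ligand and adhesion lists (horizontal axis, points spread sideways for legibility), with the brightest members named and Ryk, which is in the WNT receptor list, at the top of its column. Filled points are above the limit of 16.9 (dashed line) and open points are not; 8 of 30 EGF and FGF family ligand genes were detected against 6 of 9 genes for their receptors.

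Of 136 members of the 6 cell cycle lists 117 were detected (86.0%, against 51.6% of all symbols), from 70.4% of immediate early genes to 97.4% of DNA replication genes. Ccnd1, the D-type cyclin that growth factors induce, read 10049, 13609.5 and 12653, at rank 165. Its partner kinase gene Cdk4 read 5587, 5268 and 4662, and Cdk2, the kinase of S-phase entry, read 4839, 4582 and 4017. Cdk6, the other partner of D-type cyclins, was not detected at 11.7, 14.4 and -1.1. Of 39 DNA replication genes 38 were detected, led by the helicase subunit genes Mcm4 at 8617, 9712 and 7287 and Mcm5 at 6886, 7215 and 4549, and the exception was Pola1, the catalytic subunit of polymerase alpha, at -11.9, 4.1 and -12.8. Of 34 mitosis genes 31 were detected, with Cenpa, the centromeric histone H3, at 12964, 13757 and 11520 and Prc1, a protein of the spindle midzone, at 10394, 9511 and 7055. In both lists replicate 3 was more often the lowest array than in all genes: 21 of 38 replication genes and 18 of 30 mitosis genes were lowest there, against 32.7% of the 8801 symbols above the limit on each array. The median difference from a gene's own mean on replicate 3 was -0.11 on the log2 scale in either list.

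Inhibitors of the cycle were measured in the same cells, with 9 of 10 CDK inhibitor and pocket protein genes detected. Cdkn1a (p21) read 3399, 3278 and 3250.5, Cdkn2c (p18) read 1246, 1209.5 and 1496 and Cdkn2a, which encodes p16 and p19ARF, read 1050.3, 1476 and 1197. Each was above 1000 on all arrays. The retinoblastoma gene Rb1 read 624, 376 and 436, and Rbl2 was not detected. Among E2F factors and their partners, 8 of 10 were detected, with Tfdp1 at 2952, 3487 and 3338 and E2f1 at 1037, 987 and 888. Of 27 immediate early genes, whose transcription follows growth factor signals without new protein synthesis, 19 were detected. Dusp6, which encodes a phosphatase of ERK, was at rank 197 and read 12378, 10495 and 9869.8, and Egr1 read 10995, 6727 and 6857, with replicate 1 the highest. Fosb, Arc, Atf3 and the genes Nr4a1, Nr4a2 and Nr4a3 were not detected.

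Genes of protein synthesis, energy metabolism and the cytoskeleton led the ranking. Among the 30 brightest symbols, 13 were ribosomal protein genes, led by Rplp1 at 53518, 53518 and 51330.1. Others of the 30 were Eef1a1, for the elongation factor that brings tRNA to the ribosome, Dbi, for an acyl-CoA-binding protein of glia, Ckb, for brain creatine kinase, Atp5b, for a subunit of ATP synthase, the mitochondrial gene CYTB, and the tubulin genes Tuba1b, Tubb5 and Tubb2b. Several of the 30 (H2ac24, H2ac20 and H2ac10, Ubb-ps, Gm6548 and ribosomal genes) have near-identical copies or pseudogenes, so that their probes may read more than 1 gene. Over the 8 metabolic lists 192 of 221 members were detected (86.9%, against 51.6% of all symbols). Of 55 nuclear genes for subunits of oxidative phosphorylation 50 were detected, with a median intensity of 5313 over all 55, and of 23 TCA cycle genes 21. Ribosomal proteins were detected for 50 of 55. The 5 that were not, Rpl6, Rpsa, Rps20, Rpl17 and Rps23, had values from -14 to 14.8. Sdha and Ndufs1, which encode subunits of respiratory complexes II and I, were likewise at background with -3.2, -7.1 and -3.9 and -2.3, -9.9 and -5.3. Every dividing cell uses such proteins, so a probe at background is no measure that its gene is off.

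Lipid and amino acid synthesis was represented by most of its enzymes. Of 19 cholesterol synthesis genes 18 were detected, with Fdps, farnesyl diphosphate synthase, at 14868, 13327 and 17673 and Sqle, squalene epoxidase, at 9712, 8666 and 9819. Of 22 fatty acid genes 17 were detected, with Acly, which makes cytosolic acetyl-CoA, at 8375, 9233 and 8138, and Acaca, the next enzyme of that route, at background with -14.5, -7.3 and 9.4. Of 11 serine, glycine and folate genes 9 were detected. Psat1, an aminotransferase of serine synthesis, read 9612, 9151 and 8840.2, and Gldc, the glycine decarboxylase, read 5462, 4954 and 3613. Of 9 glutamine and glutamate genes 8 were detected, with Got2 at 11520, 12848 and 11667 and glutamine synthetase, Glul, at 209, 189 and 208. Glycolysis genes were detected for 19 of 27. The 8 not detected include the forms of testis, muscle and other tissues Ldhc, Gapdhs, Pgk2, Pgam2 and Slc2a4, as well as the neuronal form Eno2 and the transporter Slc16a1. Among the dimmest of the 19 detected were Eno3 at 61, 18.3 and 22.7, Pklr at 29.5, 10.6 and 17.5 and Slc2a2 at 31.1, 9 and 15.3.

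**Figure D4:**
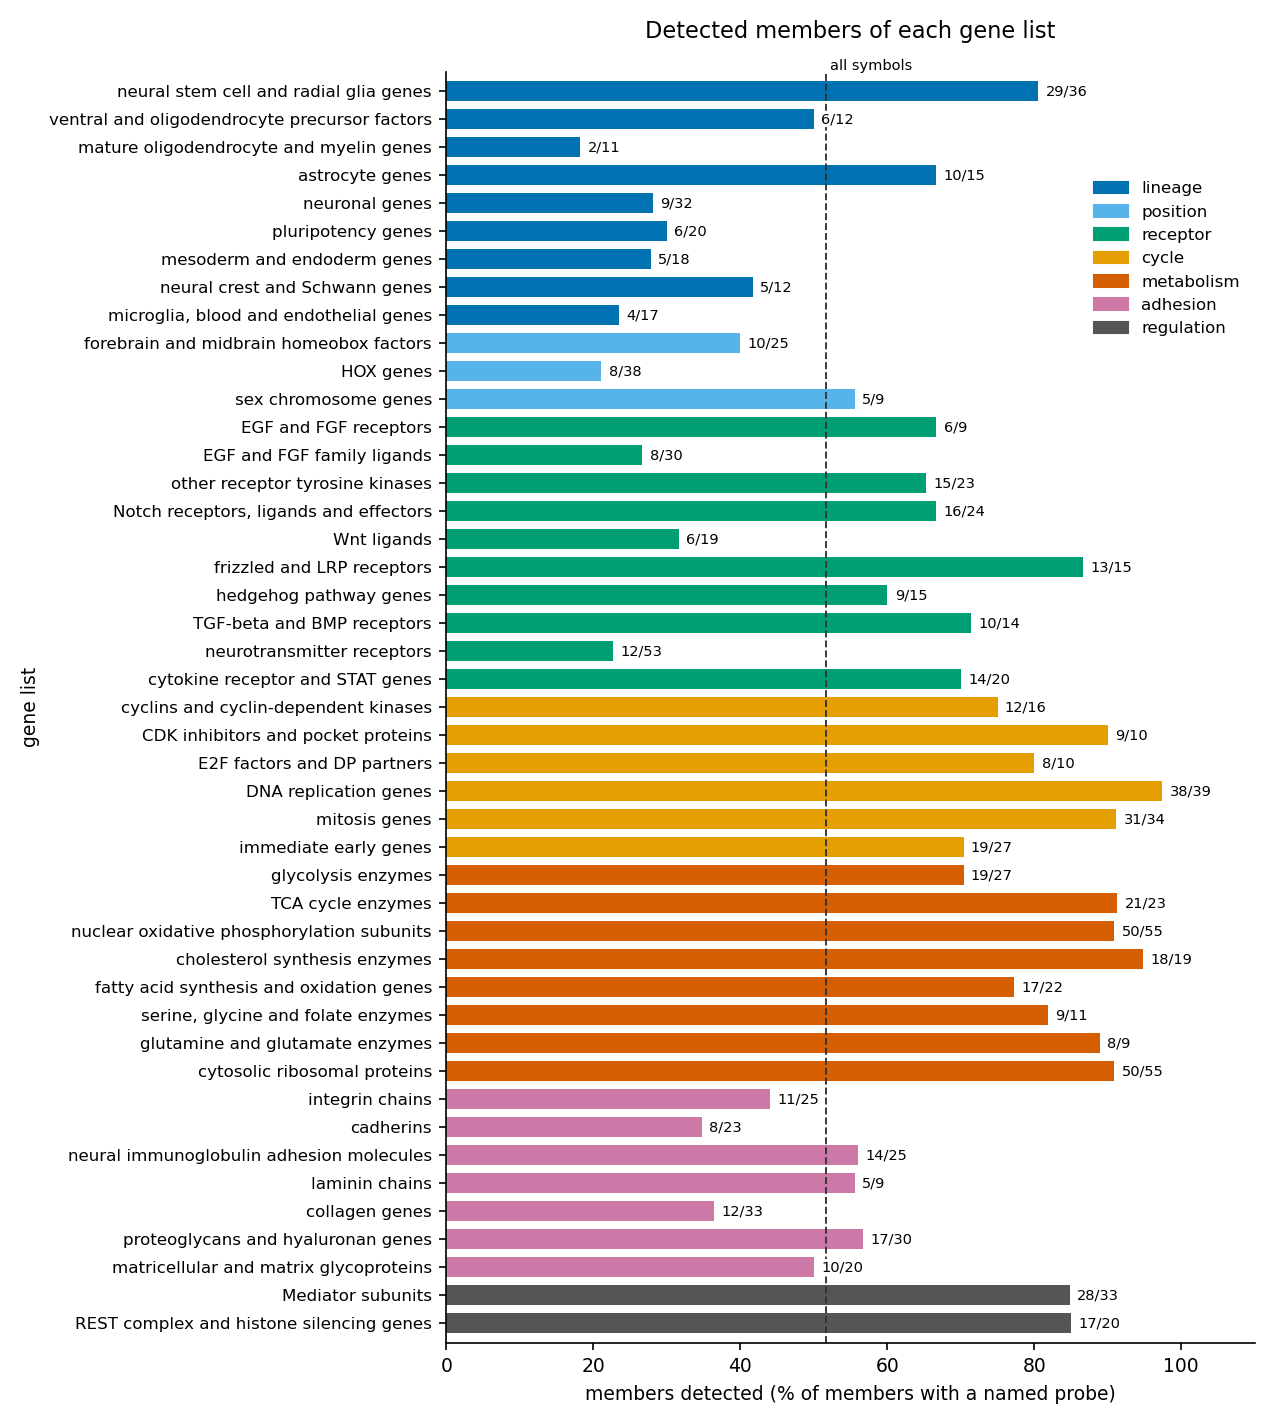
Share of the members of each of 45 gene lists that were detected (horizontal axis, % of members with a named probe), with the counts beside each bar and bars coloured by the role of the list. The dashed line is the 51.6% of all 19057 symbols; cycle, metabolic and regulatory lists lie to its right, and lists of neuronal, myelin, blood, HOX and neurotransmitter receptor genes to its left.

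Of 164 adhesion and matrix genes 76 were detected (46.3%), a share near the 51.6% of all symbols. Of 25 integrin chains 11 were detected. The alpha chain gene Itga9, whose product binds tenascin C, was lowest on replicate 1 at 722, 1816 and 1458. Itgb5 read 391, 263 and 277 and Itgav, its alpha partner for vitronectin, read 254, 339.7 and 173. Itga6 and Itgb1, which together form a laminin receptor, read 190.5, 133 and 120.3 and 156, 130 and 149. The other 6 detected had means under 40. Of 23 cadherins 8 were detected, and Cdh4 (R-cadherin) stood apart at 5634, 4448 and 5675, at rank 537. Cdh2 (N-cadherin), the usual cadherin of neural progenitors, was at the limit with 25, 18.2 and 8.1, and its other probe was below it. Of 25 neural adhesion molecules of the immunoglobulin group and their neighbours, 14 were detected, with Nrcam at 1115, 949 and 943, Cadm1 at 771, 719 and 723 and Ncam1 at 448, 702 and 706. L1cam, an adhesion molecule of growing axons, was not detected at 10.2, 6.5 and 12.1.

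In the matrix, the proteoglycans gave the brightest probes. Of 30 proteoglycan and hyaluronan genes 17 were detected (56.7%, near the 51.6% of all symbols). The shares of the lists below were 55.6% for laminin chains, 36.4% for collagens and 50% for matricellular genes. Agrn (agrin) read 8214, 7033 and 6290.4, the glypican gene Gpc1 read 7642, 6179 and 4689.5, and the syndecan gene Sdc3 read 2970.3, 1835 and 2102. Brain chondroitin sulphate proteoglycans were also above background, with Bcan (brevican) at 3099, 2567 and 2196, Ptprz1 at 2102, 1602 and 1343 and Ncan (neurocan) at 1296, 1211 and 1364. Of 9 laminin chains 5 were detected, with the gamma chain gene Lamc1 at 1083, 1401 and 1037 and the alpha chain gene Lama5 at 225, 278 and 294. The others detected, Lamb2, Lamb3 and Lamb1, are beta chains, which join an alpha and a gamma chain in each laminin trimer. Of 33 collagens 12 were detected, and those of the basement membrane, Col4a1 and Col4a2, read 352, 276 and 210.2 and 99.5, 105 and 102. Col1a1 and Col3a1, the fibrillar collagens of fibroblasts, were not detected. Among matricellular genes 10 of 20 were detected, with Fbln1 (fibulin 1) at 2828, 3446 and 2913, Sparc at 1807, 1558 and 1298 and Tnc (tenascin C) at 1081, 1544 and 1719. Fn1 (fibronectin) was dim at 22.6, 66.5 and 30.8, and Vtn and Thbs1 were not detected.

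Genes of the Mediator complex, which links transcription factors to RNA polymerase II, were detected for 28 of 33 (84.8%, against 51.6% of all symbols). Med12, the subunit that the study targeted in the other arrays, read 355, 356 and 267 in these control cells, at rank 4846. Within its kinase module, Ccnc read 882, 889.6 and 752, Cdk8 read 770.3, 848 and 748 and Cdk19 read 687, 389.5 and 439, and Med13, Med13l and Med12l were not detected. Med28 was the brightest subunit at 3662, 3994 and 4049. Of 20 genes of REST complexes and of histone and DNA silencing 17 were detected, with the deacetylase gene Hdac2 at 10643, 10092 and 9129.9, the Polycomb genes Suz12 at 4259.5, 4193 and 3552 and Ezh2 at 1993, 2065 and 1724, and the REST corepressor gene Rcor1 at 1345, 1293 and 1168. The probe of Rest itself, the repressor of neuronal genes, was at background with -13.8, 12.4 and -16.3.

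The 3 arrays were alike over most genes. Across the 8801 symbols above the limit on each array, the correlation of log2 intensities between pairs of arrays was 0.98 for each pair, a value across genes that quantile normalization and the wide range of brightness both raise. The median SD of a gene over the 3 arrays was 0.21 on the log2 scale, with a 10th percentile of 0.08 and a 90th of 0.49. It fell with brightness, from 0.36 for 1947 symbols with means under 100 to 0.21 for 4124 with means from 100 to 1000 and 0.15 for 2730 above that. The range between arrays reached 2-fold or more for 716 symbols (8.14%) and 4-fold for 21. Ribosomal protein genes varied little, with a median SD of 0.08 over 49 members, and Mediator subunits had 0.15 over 28.

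The 10 genes that varied most between the control arrays were Slc14a2, Slc39a12, Pdk1, Socs2, Slc2a13, Ppp2r2b, Plekha4, Dnajb4, Hes5 and Mycl. In 9 of the 10 replicate 1 was the highest array. Over all 8801 symbols above the limit on each array, 34.6% were lowest and 35.6% highest on replicate 1. Slc14a2, a urea transporter gene, read 604, 81.5 and 166, a range of 7.41-fold. Socs2, a feedback inhibitor of cytokine receptors, read 1174, 204 and 279.8, and Mycl, a MYC family factor, read 756, 229 and 172. The exception was Pdk1, a kinase that keeps pyruvate out of the TCA cycle, which was lowest on replicate 1 at 55.8, 236 and 374. Since there is 1 control array per set, set and replicate error cannot be told apart from these arrays alone, and the 2 Med12 knockdown arrays that the labels give each set were looked up. The labels do not say whether the second of them is a separate culture or a repeat of the first, so a set mean may stand for 1 culture or for 2. Slc14a2 read 682.8 and 779.9 on the knockdown arrays of set 1 against 358 to 419 on those of the other sets, so that set 1 was the highest there too. Mycl read 739 and 711 in set 1 against 335 to 392 in the others. Of the 10 genes, only Pdk1 and Dnajb4 did not keep the side of control replicate 1. Pdk1 had its highest knockdown mean in set 1, with log2 means of 7.93, 7.45 and 7.44 for sets 1 to 3. Dnajb4 had its lowest there, with 6.20, 6.52 and 6.35. Over all genes, 58 symbols were at least 2-fold higher on control replicate 1 than on both other controls, and in 45 of them (77.6%) the knockdown mean was highest in set 1, against 40.8% of all 8801. Of 60 symbols at least 2-fold lower on replicate 1, 37 (61.7%) were lowest in knockdown set 1, against 41.5%. For replicate 2 the counts were 3 of 14 higher symbols (23.8% of all) and 22 of 55 lower symbols (27.1% of all), and for replicate 3 they were 12 of 36 (35.4% of all) and 26 of 48 (31.4% of all). Shared low values were thus above the share in all genes for each replicate (61.7%, 40% and 54.2% for replicates 1, 2 and 3), and shared high values for replicate 1 alone (77.6%, against 21.4% and 33.3% for the others). What the cultures of a set have in common was not tested.

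Among glycolysis genes the control arrays differed in 1 order. Of 15 members above the limit on each array, 10 were lowest on replicate 1 and highest on replicate 3, against 17.5% of all 8801 symbols. Tpi1, triosephosphate isomerase, read 11183, 16725 and 20630.1, and Pfkl, a phosphofructokinase subunit, read 2234, 4042 and 5159. Slc2a3, the glucose transporter GLUT3, read 64.3, 182 and 271. The medians of the 15 genes' differences from their own means were -0.36, 0.08 and 0.26 on the log2 scale for replicates 1, 2 and 3. Aldoc ran the other way, at 14123, 10749.7 and 11183. A list of 20 target genes of the hypoxia-inducible factor HIF outside glycolysis was added after this had been seen, and 11 of its 15 members above the limit on each array had the same order. Vegfa, the vascular endothelial growth factor, read 481, 905 and 1771, Egln3, an oxygen-sensing hydroxylase that HIF induces, read 348, 612 and 961, and Ankrd37 read 69.8, 129 and 240.4. The medians of these 15 genes were -0.47, -0.00 and 0.36.

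In the knockdown arrays, each set taken as a mean of 2 arrays, the set medians did not show a spread of that size in either list. They were -0.06, -0.00 and 0.07 for the glycolysis genes and -0.12, -0.08 and 0.09 for the HIF targets. A mean of 2 arrays can vary less than a single control array, so the sizes are not strictly comparable. Single genes differed. Ldha kept the control order, at 8876, 12431 and 13898 on the first knockdown arrays of sets 1 to 3 and 8805, 13027 and 13288 on the second. Slc2a1 did not, at 3877, 3554 and 4076 and at 4491, 3616 and 3673. Nor did Vegfa, at 474, 633 and 575 and at 745, 549.5 and 689. The difference between the control and the knockdown arrays in this spread was not tested. In the control arrays, the medians of replication genes were 0.07, 0.12 and -0.11. Those of cholesterol synthesis genes were -0.02, -0.17 and 0.23, and 13 of these 18 genes were lowest on replicate 2 (32.7% of all symbols). What differed between the cultures was not tested.

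**Figure D5:**
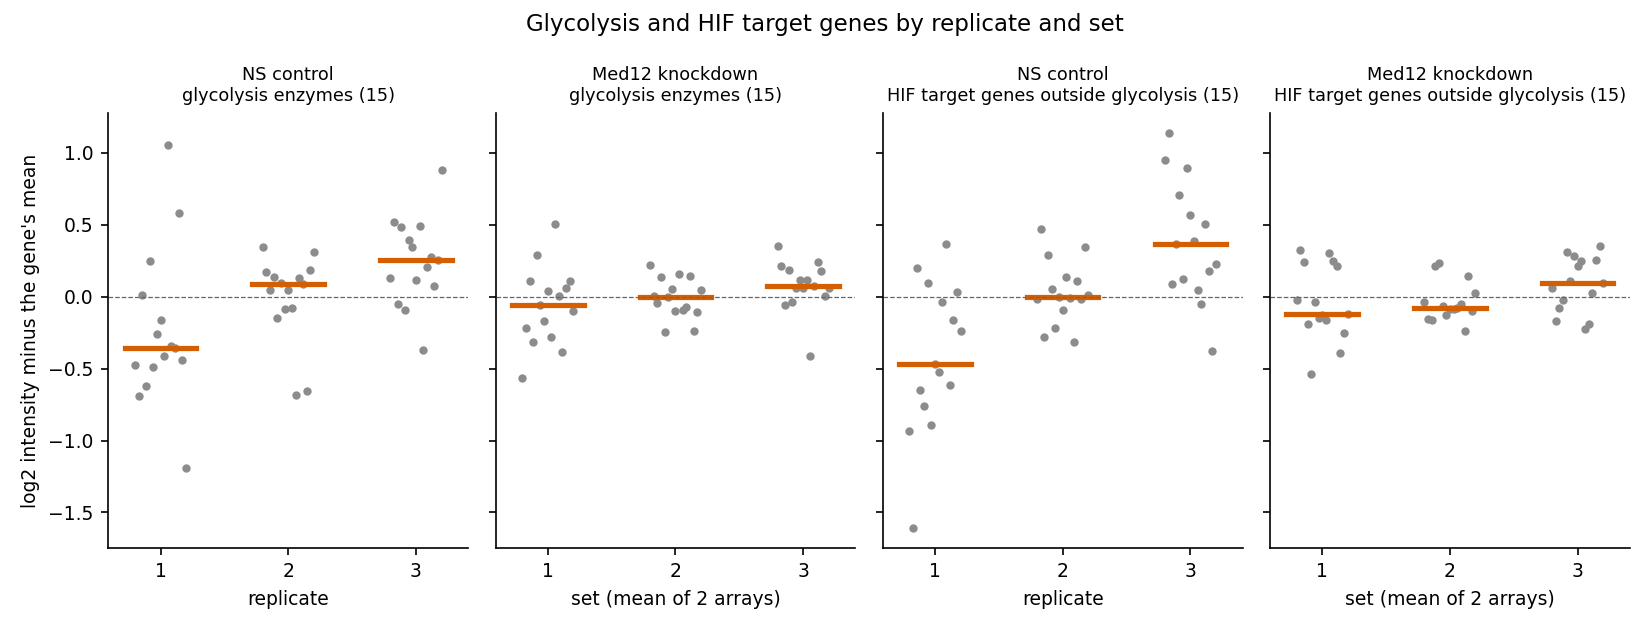
Log2 intensity minus the gene's own mean over 3 values (vertical axis) for 15 glycolysis genes and 15 HIF target genes, on the 3 NS control arrays and, for the same probes, in the 3 Med12 knockdown sets (mean of 2 arrays each). Grey points are genes and orange bars their median; in the controls the medians run from -0.36 to 0.26 and from -0.47 to 0.36, and in the knockdown sets from -0.06 to 0.07 and from -0.12 to 0.09.

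The rule that chose detected genes used no sequence, and their promoters were described from RefSeq's GRCm38.p6 windows of 300 bases, the first listed for each symbol. Of 9842 detected symbols 8036 had a promoter in the table (81.7%). Among them 71.3% were rich in CpG, defined as an observed over expected CpG ratio of at least 0.6 with at least 50% GC, against 34.1% of all 27025 promoters in the table. That table also holds promoters of genes that have no named probe here, and among the 15237 symbols of the array with a promoter, detected or not, 49.5% were rich in CpG and 49.9% held GGGCGG. These 15237 are just under 80% of the 19057 symbols, so this share is given as a description of the matched symbols only. TATAAA on either strand was in 7.34% of the promoters of detected genes and in 14.2% of all, CCAAT in 39.8% and 37.9%, and GGGCGG in 65.3% and 35.9%. CCGGAAGT, the core of ETS family motifs, was in 8.81% and 4%, GCGCATGC, an NRF1 motif, in 5.74% and 2.80%, and ATGGCGGC, a YY1 motif, in 5.48% and 2.38%. Among the 15237 matched symbols of the array, the shares were 12.5% for TATAAA, 38.6% for CCAAT and 5.70% for CCGGAAGT. They were 3.85% for GCGCATGC and 3.43% for ATGGCGGC. Each difference from detected genes is thus smaller against the symbols of the array than against all promoters. All motifs were searched on both strands, and none contains another, though their matches may share bases. When detected symbols were divided into 5 equal groups by brightness, the share rich in CpG was 71.7%, 76.9%, 76.9% and 78.8% from the second to the brightest group, and that with CCGGAAGT was 7.46%, 7.85%, 11.3% and 12.2%. The same comparison is void for the dimmest group and for the 9215 symbols not detected, as only 78.3% and 78.1% of them had a promoter in the table.

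Promoters of the gene lists differed in the same features. CCAAT was present in 88.2% of 17 cholesterol synthesis genes, 81.8% of 11 serine, glycine and folate genes and 75% of 28 mitosis genes, detected or not, against the 37.9% of all promoters. In NSC and radial glia genes it was in 58.6% of 29. CpG-rich promoters made up 94.7% of 19 genes of the REST and silencing list and 7.69% of 13 astrocyte genes. These were the highest and lowest shares of the lists compared, against 49.5% of the 15237 matched symbols of the array. Other lists lay near that share, such as glycolysis enzymes at 48% and fatty acid genes at 50%. CCGGAAGT was in 20% of 45 ribosomal protein genes, the highest share of the lists compared, against 5.70% of the matched symbols. A motif that is not found says only that these letters are not in the window.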

How the data were processed

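Total RNA of the 3 NS control and 6 Med12 knockdown samples was hybridised by the authors to Illumina MouseWG-6 BeadChips with 45281 probes. The deposited intensity values, on a linear scale, had been background subtracted and quantile normalized by the authors in GenomeStudio (version: not given in the sources used here). Quantile normalization puts the same set of values on each array, so shifts shared by most genes cannot be seen and a value can recur on several arrays. The values ran from -35.6 to 53518.1 with array medians of 8.9 to 9.0. On the NS control arrays 33.4% to 33.5% of them were below 0, and 18654 to 18671 probes were above the limit. The 18 columns of a separate file of unnormalized signals have names that match no sample, and they were left out. The number of arrays limits the precision.

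By GEO's platform table, 34885 probes name 1 symbol each, 18 name more than 1, and the remaining 10378 stay unnamed. RefSeq's genes of GRCm38.p6 hold the Entrez identifier of 34807 probes and changed 0 symbols. Values below 0 of all arrays were mirrored to give a background SD of 10.3, and the limit of 16.9 is its one-sided p of 0.05. A stricter limit of 24.0 uses 0.01. Each symbol was represented by its probe with the highest mean over the 3 NS control arrays. The detection rule was also run on simulated data with a background drawn as a normal around 0. The limit assumes such a background, so that run cannot test the assumption. The p of 0.05 refers to a single value and not to a symbol represented by the brightest of several probes. As 1 group was described, no test was made, and the share over all symbols (51.6%) is the background for every count of detected members. The spread was taken on the log2 scale over symbols above the limit on each array, with no pseudocount.

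The cells, their members and the 45 gene lists were chosen with earlier results of these data known, and 2 lists (HIF targets outside glycolysis and ATF4 targets) were added after these values had been seen. Named genes are the 5 markers, the 30 brightest symbols, of each list up to 6 brightest detected members and up to 4 not detected in list order, and the 10 genes above the stricter limit on each array with the largest range. Others were chosen after their values were seen, for their role or because a count of few members needed them. Alternatives covered the limit, the number of arrays above it, the probe that stands for a symbol, the ranking of all probes, the promoter window and choice, and leaving out each array. Symbols with a single listed promoter, and the knockdown arrays of the same set, were turned to later, with the values known. Promoters came from RefSeq (GRCm38.p6), from 250 bases before to 50 after the start, and a comparison was kept where at least 80% of its symbols matched. Python 3.11.15, numpy 2.4.6, pandas 2.3.3, scipy 1.17.1 and matplotlib 3.10.9 were used.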

Additional observations from a re-analysis of the deposited data

How the results depend on the processing

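Counts of detected symbols, 9842 in the main setting, were 9062 with the stricter limit, 9845 with a limit from the NS control arrays alone, 8801 when each array had to be above it, 9027 with the mean over a symbol's probes and 7638 with the first probe by identifier. Leaving out 1 array gave 9906 to 10020. Of the 45 list counts, the stricter limit lowered 5 by over 1.5 times, the demand for each array 7, the mean over probes 2 and the first probe 10, and none rose by that much. The neurotransmitter receptors fell to 7, the HOX genes to 4, the integrins to 5 and the cadherins to 4 when each array had to be above the limit, so their dimmest members rest on 1 or 2 arrays. Brightness ranks depend on the probe. With the mean over probes, Nes was at 1506, Fabp7 at 2143 and Olig2 at 3350. With the first probe by identifier, Nes was at 886, Sox2 at 3156, Fabp7 at 1914, Olig2 at 2819 and Gfap at 16720. With all probes ranked, Nes was at 1894, Sox2 at 3357, Fabp7 at 4142, Olig2 at 6219 and Gfap at 22852. The share of detected genes with a CpG-rich promoter, 71.3%, was 74.0% with the stricter limit, 74.3% with each array above it, 76.4% in a shorter window and 73.1% for symbols with a single listed promoter. No paired analysis was possible because no contrast of expression levels between groups was made. Signal over background limits the dim genes: below a mean of 100 the median SD over arrays was 0.36 on the log2 scale.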

Other observations

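Genes of the sex chromosomes were also on the arrays. The Y-linked gene Eif2s3y, a translation factor subunit, read 1253, 809 and 991 on replicates 1, 2 and 3, and Uty, a Y-linked relative of the demethylase gene Kdm6a, read 67.7, 40.4 and 37.0. Xist, the RNA that silences 1 X chromosome in female cells, was not detected with 14.7, 13.8 and 18.3, and neither were Kdm5d and Sry. Of their X-linked relatives, Eif2s3x, Ddx3x and Kdm6a were above background on each array, and Kdm5c was not detected with 11.3, 21.4 and -2.7.

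All 20 target genes of the stress-responsive factor ATF4, a list added after the data had been seen, were detected, against 51.6% of all symbols. Chac1 was so through replicate 3 alone, at 6.3, 8 and 82.8. Of 19 above the limit on each array, 12 were lowest on replicate 1 (34.6% of all symbols), with medians of -0.21, 0.06 and 0.09 on the log2 scale for the 3 arrays. The knockdown arrays of the same sets had medians of -0.28, 0.10 and 0.14. Trib3, a pseudokinase gene that ATF4 induces, read 96.0, 284 and 355 on the control arrays, and 253 and 280.3 on the knockdown arrays of set 1 against 388 to 438 on the others. Asns, asparagine synthetase, read 2610.0, 3777 and 4015 on the controls. Here, unlike in the glycolysis and HIF target lists, the lowest set median was of like size in both groups, and the difference between the lists was not tested. Of 14 Notch pathway genes above the limit on each array, 10 were highest on replicate 1 (35.6% of all symbols), with medians of 0.21, -0.22 and -0.02.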
